A study of Arabidopsis thaliana with 66 samples.

Results

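This account is about roots of the Arabidopsis line N8507 grown with thorium on a phosphate-free medium, set against roots of the same line grown with thorium on the full medium. The 6 libraries were chosen by their labels (genotype N8507, treatment -P+Th or mock+Th, 3 libraries each) out of 66 in the series. The whole series covers Col-0 roots and 3 lines known by stock number (N9416, N8508, N8507), 4 genotypes in all, and compares phosphate-free medium, thorium and nano-hydroxyapatite, a poorly soluble calcium phosphate given as nanoparticles. Roots were taken after 14 days of exposure, and reads were counted over coding sequences.

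The -P+Th roots of N8507 had no phosphate in the medium and were exposed to thorium. The mock+Th roots of N8507 were on the full medium and were exposed to thorium as well, so thorium was given to both groups. How much thorium reached the roots on each medium was not tested, so phosphate supply and thorium exposure cannot be told apart. The effect of removing phosphate under thorium here means the whole difference between the media. Both groups are of the line N8507, for which the labels give a stock number and no gene name, so no mutated gene could be checked in these libraries. The matching pair without thorium, -P and mock roots of N8507 (3 libraries each), and the -P+Th and mock+Th roots of the line N9416 (3 libraries each) were used to test where the effect differed. Whether replicate libraries were grown as separate plants or plates is not in the labels, so p-values measure the spread between these libraries, which may be technical. The libraries of each group carry consecutive running numbers in the labels, so medium and library order cannot be told apart.

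Assigned reads, in units of 1e6, came to 14.73, 15.89 and 9.4 in the -P+Th libraries and 15.48, 16.76 and 16.68 in the mock+Th libraries, and the whole series spanned the same range, 9.4 to 16.76. One library stood apart, -P+Th replicate 3. Its log2 CPM (reads per 1e6 assigned reads) correlated at 0.947 and 0.944 with the other -P+Th libraries, which correlated at 0.993 with each other, whereas the mock+Th libraries correlated at 0.991 to 0.995. Against its group mates, genes with coding sequences of at most 1000 bases were higher in it by a median of 0.61 on the log2 scale and those of at least 2000 bases differed by a median of -0.95. Its median effective length was 57.3% of the coding length, and that of the other N8507 libraries 59.2% to 65.8%. It was kept, and results that depend on it are given with and without it. Of 11 markers of root tissues all were detected, with summed levels of 478 to 565 CPM in -P+Th roots and 648 to 695 CPM in mock+Th roots, while the 5 of 9 green tissue markers that passed the filter on low counts summed to 18.4 to 49.1 CPM in -P+Th roots and 30.5 to 67.7 CPM in mock+Th roots.

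Plants sense low phosphate inside their cells through SPX proteins, which hold back the transcription factor PHR1 when phosphate is plentiful. When it is scarce, PHR1 and its relatives switch on phosphate transporters, secreted phosphatases, enzymes that swap membrane phospholipids for galactolipids and sulfolipids, and the non-coding RNA IPS1, which sequesters a microRNA that otherwise lowers the ubiquitin-conjugating enzyme PHO2. Thorium is a radioactive actinide whose ions form poorly soluble phosphates.

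Under thorium, -P+Th and mock+Th roots differed in many genes, but few of the classical phosphate starvation genes were among those that rose. Most sulfur limitation and detoxification genes rose, as did 3 camalexin enzymes, while the high-affinity phosphate transporter PHT1;2, the xylem phosphate exporter PHO1, the iron uptake genes FRO2, IRT1 and FIT, the ammonium transporters AMT1;2 and AMT1;3 and most hypoxia genes fell. Of 20241 genes tested with edgeR's quasi-likelihood test, 4175 (20.6%) passed a Benjamini-Hochberg adjusted p of 0.05, 2136 (10.6%) of them higher and 2039 (10.1%) lower in -P+Th roots. The median log2 fold change over all genes tested was -0.007. Without -P+Th replicate 3 the count was 3540, with 3012 genes shared, 72.1% of the 4175. The count of rises was 1372 without mock+Th replicate 1 and 1403 without mock+Th replicate 2. In 8045 genes (39.7%) the 3 and 3 libraries did not overlap. The gene lists below were chosen with earlier results of these data known, so their shares beside all genes are descriptions and no test. In all of what follows, fold changes are -P+Th against mock+Th on the log2 scale with their standard errors, and in bulk roots fewer cells of a type and less RNA per cell cannot be told apart.

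**Figure D1:**
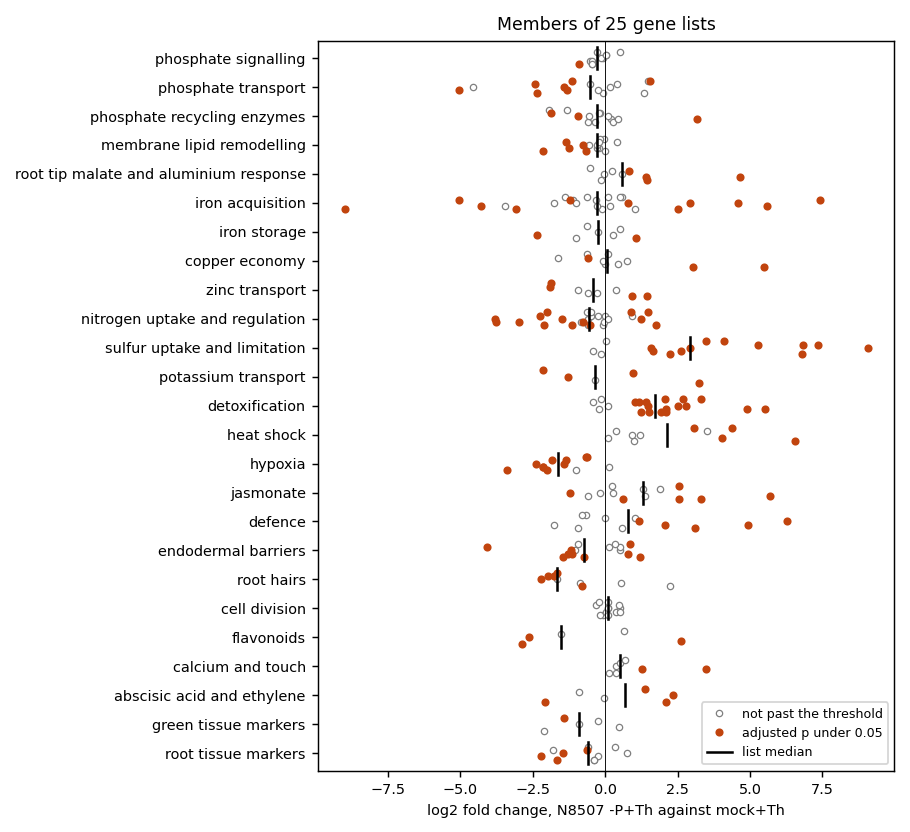
Each circle is 1 member of a gene list, placed by its log2 fold change between the 3 N8507 -P+Th and the 3 mock+Th libraries. Filled circles passed an adjusted p of 0.05 in edgeR's quasi-likelihood test, open ones did not, and the black bar is the median of the list's tested members. Sulfur and detoxification lists lie mostly to the right and the hypoxia list mostly to the left, while the phosphate lists centre near 0 with a tail to the left. Members at 0 in all libraries of 1 group are drawn at their fitted value, which is no bound.

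Few phosphate signalling genes passed the test. Of 11 members of the list, 0 rose and 1 fell, a share of 9.09% beside 20.6% of all genes. IPS1 (AT3G09922) stood at 110.5, 171 and 532 CPM in the -P+Th libraries, against 393, 384 and 337 CPM in the mock+Th libraries. Replicate 3 of the -P+Th group was high and its group mates low, so the groups overlapped (log2 fold change -0.46 ± 0.41, adjusted p = 0.457). Without that library the log2 fold change was -1.40 with an adjusted p of 0.00173, so whether IPS1 passed rested on it. SPX1 (AT5G20150), which encodes a phosphate sensor of the SPX family, had 1323, 1524 and 1030.4 CPM in the -P+Th libraries, against 1437, 1299 and 1359.7 CPM in the mock+Th libraries, and the groups overlapped (log2 fold change -0.08 ± 0.23, adjusted p = 0.837). PHO2 (AT2G33770) had 330.1, 420.4 and 88.1 CPM in the -P+Th libraries, against 289.6, 226 and 317 CPM in the mock+Th libraries. The single low value of PHO2 was -P+Th replicate 3, and the groups overlapped (log2 fold change 0.01 ± 0.45, adjusted p = 0.988). That library differed from its group mates by coding length, as given above. Whether this bears on its values of IPS1 and PHO2 was not tested. The one member that fell was SPX4 (AT5G15330), another SPX sensor, with 8.92, 3.75 and 6.31 CPM in the -P+Th libraries, against 12.1, 12.5 and 10.7 CPM in the mock+Th libraries and no overlap (log2 fold change -0.89 ± 0.24, adjusted p = 0.0149). That call was lost without mock+Th replicate 2, where 0 members fell, and without -P+Th replicate 3 the count was 4. Log2 fold changes of PHR1 (-0.45, adjusted p = 0.165) and its relative PHL1 (-0.13, adjusted p = 0.647) did not pass.

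Among 15 phosphate transport genes 6 fell and 1 rose, 46.7% past the threshold beside 20.6% of all genes. PHT1;2 (AT5G43370), a proton-coupled phosphate importer of the root surface, had 12.5, 15.6 and 14.2 CPM in the -P+Th libraries, against 466, 427 and 521 CPM in the mock+Th libraries. Every -P+Th library was far below every mock+Th library (log2 fold change -5.06 ± 0.45, adjusted p = 1.51e-06). Its neighbour PHT1;1 (AT5G43350), the main importer on sufficient medium, had 128, 116 and 140.1 CPM in the -P+Th libraries, against 677, 576 and 726 CPM in the mock+Th libraries, with no overlap (log2 fold change -2.37 ± 0.31, adjusted p = 5.5e-05). PHT1;1, PHT1;2 and PHT1;3 are near-identical and Salmon may divide reads between them in different ways, so their sum is the safer value. It was 140.3, 132 and 154 CPM in the -P+Th libraries, against 1143, 1003 and 1247 CPM in the mock+Th libraries.

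PHO1 (AT3G23430), which exports phosphate into the xylem, had 125, 135 and 66 CPM in the -P+Th libraries, against 609, 481 and 675 CPM in the mock+Th libraries. The lowest value was -P+Th replicate 3, and the groups did not overlap (log2 fold change -2.44 ± 0.35, adjusted p = 0.000123). Further carriers fell, PHO1;H1, a PHO1 relative (log2 fold change -1.16, adjusted p = 0.0259), and the importers PHT1;8 (-1.31, adjusted p = 0.0267) and PHT1;9 (-1.42, adjusted p = 0.0105). The list's one rise was PHT1;5 (AT2G32830), known for moving phosphate between organs, with 25.5, 31.6 and 43.8 CPM in the -P+Th libraries, against 11.9, 12.5 and 10.2 CPM in the mock+Th libraries and no overlap (log2 fold change 1.54 ± 0.41, adjusted p = 0.0125). Its call was lost without mock+Th replicate 3. PHT1;4 (AT2G38940), the other strong starvation-induced importer, had 752, 816 and 698 CPM in the -P+Th libraries, against 583, 563 and 555 CPM in the mock+Th libraries. Every -P+Th library was above every mock+Th library, but the test was not passed (log2 fold change 0.41 ± 0.16, adjusted p = 0.0871).

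Of 14 phosphate recycling enzymes tested, 1 rose and 2 fell. That share of 21.4% was near the 20.6% of all genes. RNS1 (AT2G02990), a secreted ribonuclease, had 36.1, 27 and 61.9 CPM in the -P+Th libraries, against 3.27, 4.32 and 6.18 CPM in the mock+Th libraries, with no overlap (log2 fold change 3.18 ± 0.57, adjusted p = 0.000816). PAP24 (AT4G24890), a purple acid phosphatase, had 10.7, 17.1 and 6.08 CPM in the -P+Th libraries, against 42.6, 38.8 and 43.5 CPM in the mock+Th libraries, all 3 lower (log2 fold change -1.87 ± 0.45, adjusted p = 0.00765). PPCK1 (AT1G08650), a kinase of phosphoenolpyruvate carboxylase, had 401, 447 and 273 CPM in the -P+Th libraries, against 821, 648 and 669 CPM in the mock+Th libraries, with no overlap (log2 fold change -0.93 ± 0.21, adjusted p = 0.00457). Other starvation markers of this list stayed short of the threshold. The phosphocholine phosphatase gene PECP1 (AT1G17710) had 311, 373 and 535 CPM in the -P+Th libraries, against 633, 572 and 624 CPM in the mock+Th libraries, lower in all 3 (log2 fold change -0.58 ± 0.25, adjusted p = 0.113). PAP17, an acid phosphatase much used as a starvation marker, had a log2 fold change of 0.27 (adjusted p = 0.496).

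Of 14 membrane lipid genes tested, 5 fell and 0 rose, 35.7% past the threshold beside 20.6% of all genes. SQD2 (AT5G01220), which makes sulfolipid, had 559, 708 and 492 CPM in the -P+Th libraries, against 1692, 1494 and 1326 CPM in the mock+Th libraries. The groups were well separated (log2 fold change -1.36 ± 0.21, adjusted p = 0.000217). MGD3 (AT2G11810), a galactolipid synthase, had 348, 494 and 420.1 CPM in the -P+Th libraries, against 1023, 927 and 1048 CPM in the mock+Th libraries, again with no overlap (log2 fold change -1.25 ± 0.30, adjusted p = 0.00756). GDPD3 (AT5G43300), a glycerophosphodiester phosphodiesterase, had 6.84, 9.21 and 15.7 CPM in the -P+Th libraries, against 48, 43.9 and 46.3 CPM in the mock+Th libraries (log2 fold change -2.13 ± 0.45, adjusted p = 0.00294). MGD2, also a galactolipid synthase (-0.67, adjusted p = 0.0264), and SQD1, the enzyme upstream of SQD2 (-0.76, adjusted p = 0.0433), completed the list. The call of SQD1 was lost in 5 of the 6 fits that each left out 1 library. The count of 5 was 3 without -P+Th replicate 1 or without mock+Th replicate 1 or 2. The phospholipases NPC4 (0.42, adjusted p = 0.186) and PLDZ2 (-0.57, adjusted p = 0.331), which break down phospholipids on low phosphate, did not pass.

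**Figure D2:**
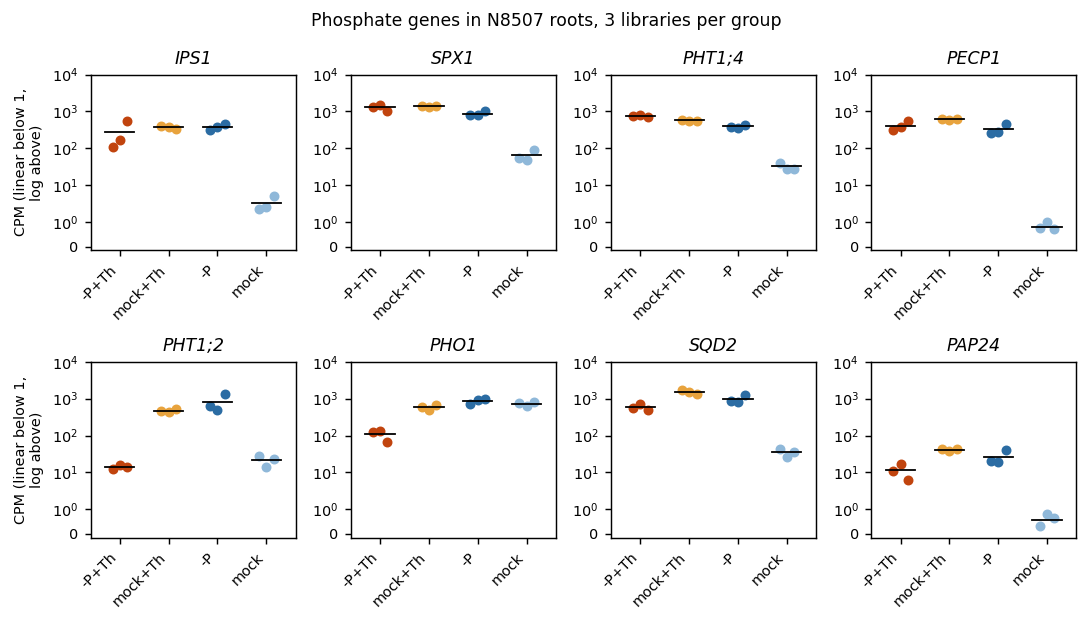
CPM of 8 phosphate genes in the 3 libraries each of N8507 -P+Th, mock+Th, -P and mock roots (axis linear below 1 and logarithmic above). Points are libraries and bars are group means. IPS1, SPX1, PHT1;4 and PECP1 stand at similar heights in the first 3 groups and far lower in mock roots, while PHT1;2, PHO1, SQD2 and PAP24 are lower in -P+Th than in mock+Th roots. In -P+Th roots SQD2 and PAP24 still stand above mock roots, whereas PHT1;2 is near them and PHO1 below them.

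PHR1 binds a short imperfect palindrome, the PHR1 binding site, whose letters GNATATNC read the same on both strands. In the 250 bases before the annotated gene start (RefSeq sequence and annotation, TAIR10.1) it was present in 16 of 54 genes of the 4 phosphate lists (29.6%), beside 1104 of 20090 tested genes with such a stretch (5.5%). Of the 12 genes of those lists singled out for their change, 3 held it, among them PHT1;2 and PAP24, which fell. Under thorium 4 of the 16 genes with the site fell (25%), and 10 of the 38 without it (26.3%). PHT1;2 and PAP24 are shown as genes with the site that fell, and SPX3 and PAP23, chosen after their values were seen, show it in genes that did not pass. Capitals mark the site, and each sequence runs 5′ to 3′ toward the gene.
PHT1;2: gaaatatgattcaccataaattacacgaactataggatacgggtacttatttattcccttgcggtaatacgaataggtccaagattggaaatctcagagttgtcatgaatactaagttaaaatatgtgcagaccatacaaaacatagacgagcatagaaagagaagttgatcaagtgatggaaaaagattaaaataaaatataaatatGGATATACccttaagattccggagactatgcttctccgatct
PAP24: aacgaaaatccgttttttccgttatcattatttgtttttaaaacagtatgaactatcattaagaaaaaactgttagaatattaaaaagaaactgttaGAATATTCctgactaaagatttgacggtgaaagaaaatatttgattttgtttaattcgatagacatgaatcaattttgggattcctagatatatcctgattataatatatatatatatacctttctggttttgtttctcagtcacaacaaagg
SPX3: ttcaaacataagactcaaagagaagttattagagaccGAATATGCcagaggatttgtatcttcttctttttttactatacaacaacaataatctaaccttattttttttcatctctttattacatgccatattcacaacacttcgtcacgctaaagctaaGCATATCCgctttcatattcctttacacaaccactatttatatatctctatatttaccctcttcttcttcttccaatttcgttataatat
PAP23: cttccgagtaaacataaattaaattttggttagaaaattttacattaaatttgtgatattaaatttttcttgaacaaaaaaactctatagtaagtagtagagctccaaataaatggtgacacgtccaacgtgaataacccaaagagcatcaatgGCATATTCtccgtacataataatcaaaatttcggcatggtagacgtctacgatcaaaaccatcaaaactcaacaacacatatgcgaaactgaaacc
These stretches lie at chr5:17415448-17415697 on the plus strand, chr4:12814457-12814706 on the minus strand, chr2:18606160-18606409 on the plus strand and chr4:7958920-7959169 on the minus strand. SPX3 carries the site at 2 places and had a log2 fold change of 0.52 (adjusted p = 0.437), and that of PAP23 was -0.57 (adjusted p = 0.235). A match is a run of letters and does not show that PHR1 binds there.

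Without thorium most of these genes rose on phosphate removal. Over the 4 phosphate lists, 40 of 54 members rose and 0 fell in -P against mock roots, beside 790 of all genes (3.9%), 3.13% higher and 0.776% lower, and their median log2 fold change was 3.18. Under thorium 2 of the 54 rose, 14 fell and the median was -0.30. Without -P+Th replicate 3 the falls under thorium were 4 signalling, 5 transport, 3 recycling and 4 lipid genes. Of the 40 that rose without thorium, 2 rose with it as well, 11 fell and 27 did not pass. The medians were the same with members at 0 in one group set to the bound given by 3 reads. The difference between the effects was tested itself, as (-P+Th minus mock+Th) minus (-P minus mock), and was negative for 42 members and positive for 0, beside 7.85% and 5.9% of all genes.

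IPS1 rose strongly without thorium. It had 321, 371 and 452 CPM in -P roots, against 2.22, 2.56 and 5.02 CPM in mock roots (log2 fold change 6.87 ± 0.54, adjusted p = 5.33e-07). The levels of -P, -P+Th and mock+Th roots were thus of one order, and mock roots stood alone at the low end. The difference of the effects was -7.33 ± 0.65, adjusted p = 1.8e-06. PECP1 had 258, 268 and 444 CPM in -P roots, against 0.761, 0.986 and 0.697 CPM in mock roots, with a difference of effects of -9.20 ± 0.43, adjusted p = 5.44e-09. For PHT1;2 the effects had opposite signs, -5.06 with thorium and 5.24 without it, and the difference was -10.30 ± 0.63, adjusted p = 5.82e-08. PHT1;2 averaged 14.1 CPM in -P+Th and 21.8 CPM in mock roots, and PHO1 averaged 108.6 and 730.8 CPM. SQD2 and PAP24 fell under thorium but stayed above mock roots. SQD2 averaged 586 CPM in -P+Th, 1504 in mock+Th, 982 in -P and 35.1 CPM in mock roots. PAP24 averaged 11.3, 41.65, 26.9 and 0.578 CPM in the same order. Over all genes 2783 (13.7%) passed for this difference, 1195 higher and 1588 lower, and 2872 passed without -P+Th replicate 3. Of the 2136 genes that rose under thorium, 77 (3.6%) were among the 633 that rose without it. They were 12.2% of those 633, near the 10.6% of all genes that rose under thorium. Of the 2039 that fell under thorium, 167 (8.19%) were among those 633, 26.4% of them beside 10.1% of all genes. Of the 157 genes that fell without thorium, 44 (28%) fell under thorium as well, beside 10.1% of all genes. Another 35 (22.3%) rose under thorium, beside 10.6% of all genes. The 2 effects share no library.

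**Figure D3:**
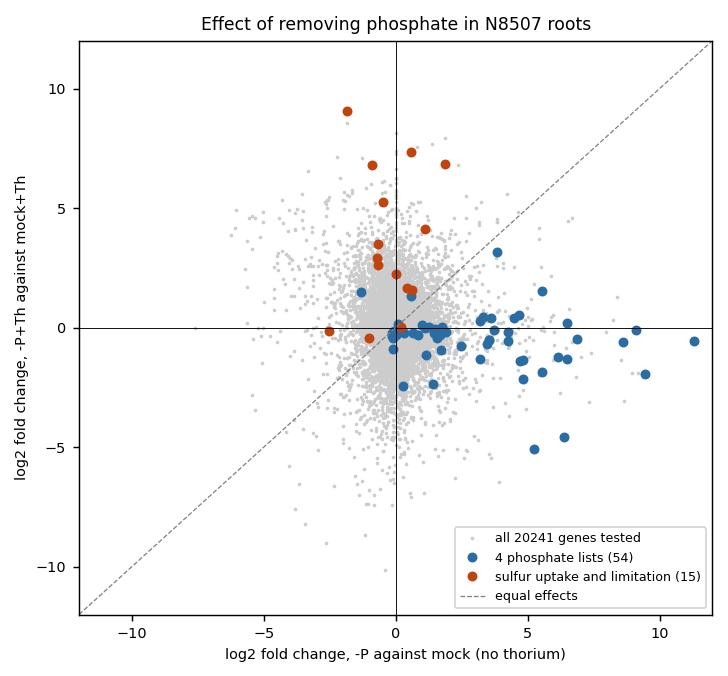
Each point is a gene, placed by its log2 fold change on phosphate removal with thorium (vertical, N8507 -P+Th against mock+Th) and without it (horizontal, -P against mock). Blue points are the 54 tested members of the 4 phosphate lists, red points the 15 sulfur genes, and the dashed line marks equal effects. Blue points spread far to the right and lie mostly near or below 0 vertically, and red points lie mostly above 0 vertically and scatter around 0 horizontally.

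Most sulfur limitation genes rose under thorium. Of 15 members 12 rose and 0 fell, 80% beside 10.6% of all genes, and the median log2 fold change was 2.93. The count was 12 in each of the 6 fits that left out 1 library. SDI1 (AT5G48850), a repressor of glucosinolate synthesis named for its induction by sulfur deficiency, had 199, 223 and 307 CPM in the -P+Th libraries, against 2.4, 2.13 and 1.96 CPM in the mock+Th libraries. Every -P+Th library was far above every mock+Th library (log2 fold change 6.81 ± 0.45, adjusted p = 1.11e-07). LSU1 (AT3G49580), of the small family named for its response to low sulfur, had 40.2, 55 and 133 CPM in the -P+Th libraries, against 0.734, 0.365 and 0.883 CPM in the mock+Th libraries, the highest in -P+Th replicate 3 (log2 fold change 6.83 ± 0.57, adjusted p = 6.42e-06), and its log2 fold change was 6.16 without that library. GGCT2;1 (AT5G26220), which recycles glutathione, had 52.6, 52.6 and 73.6 CPM in the -P+Th libraries, against 0.267, 0.608 and 0.189 CPM in the mock+Th libraries, with no overlap (log2 fold change 7.34 ± 0.80, adjusted p = 1.03e-05). BGLU28 (AT2G44460), a thioglucosidase that releases sulfur from glucosinolates, had 27, 27.9 and 27.3 CPM in the -P+Th libraries, against 0, 0.122 and 0 CPM in the mock+Th libraries. The mock+Th libraries held 2 reads of it in all, so the ratio is loosely bounded, 659 with an exact 95% counting interval of 182 to 5450 (adjusted p = 6.71e-05). Those reads are in mock+Th replicate 2, without which the group is at 0. For GGCT2;1 the log2 fold change was 7.98 without mock+Th replicate 2.

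Sulfate transporters and reductases rose with them. SULTR2;1 (AT5G10180), a sulfate transporter of vascular tissue, had 935, 1102 and 427 CPM in the -P+Th libraries, against 17.8, 17 and 29.1 CPM in the mock+Th libraries. It was lowest in replicate 3 within -P+Th, and the groups did not overlap (log2 fold change 5.27 ± 0.59, adjusted p = 1.4e-05). APR3 (AT4G21990), a reductase of sulfate assimilation, had 489.6, 535 and 382 CPM in the -P+Th libraries, against 63.2, 56.4 and 65.2 CPM in the mock+Th libraries, with tight groups (log2 fold change 2.93 ± 0.19, adjusted p = 1.11e-07). The sister reductases APR1 (2.24, adjusted p = 1.92e-07) and APR2 (1.66, adjusted p = 3.75e-05), the vacuolar sulfate exporter SULTR4;2 (3.49, adjusted p = 3.59e-06), SULTR1;3 of the phloem (1.57, adjusted p = 0.0047), SDI2 (2.6, adjusted p = 4.17e-07) and LSU2 (4.11, adjusted p = 1.92e-05) also rose. The importers of the root surface did not pass, SULTR1;1 with -0.15 (adjusted p = 0.879) and SULTR1;2 with -0.43 (adjusted p = 0.334), nor did sulfite reductase SIR with 0.03 (adjusted p = 0.9). In the pair without thorium 0 of the 15 rose and 2 fell, beside 3.13% higher and 0.776% lower of all genes. The difference of effects was positive for 10 of the 15, beside 5.9% of all genes. For SDI1 it was 7.69 ± 0.61, adjusted p = 5.86e-07. The core of the sulfur-responsive element, GAGAC, searched on both strands, was present in 3 of the 15 stretches of 250 bases (20%) and in 25.2% of all.

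Detoxification genes rose in 16 of 20 cases with 0 falling, 80% beside 20.6% of all genes, and their median log2 fold change was 1.71. GSTU4 (AT2G29460), a glutathione transferase of the tau class, had 85.7, 96.5 and 178 CPM in the -P+Th libraries, against 3.14, 3.28 and 5.55 CPM in the mock+Th libraries. The groups were far apart, with replicate 3 the highest of -P+Th (log2 fold change 4.91 ± 0.46, adjusted p = 2.51e-06). AOX1D (AT1G32350), an alternative oxidase of mitochondria, had 15.6, 13.5 and 15.9 CPM in the -P+Th libraries, against 0.534, 0.182 and 0.252 CPM in the mock+Th libraries, with no overlap (log2 fold change 5.52 ± 0.67, adjusted p = 0.000112). GSTF6 (AT1G02930), of the phi class and known from camalexin synthesis, had 268, 253 and 672 CPM in the -P+Th libraries, against 37.8, 39.2 and 42.1 CPM in the mock+Th libraries (log2 fold change 3.32 ± 0.46, adjusted p = 0.000107), and without the high replicate 3 of -P+Th its log2 fold change was 2.72. GSTU25 (log2 fold change 2.79 ± 0.72, adjusted p = 0.0112) lost its call without -P+Th replicate 3 (log2 fold change 2.05, adjusted p = 0.0521) or mock+Th replicate 2. The phytochelatin synthase PCS1 (0.09, adjusted p = 0.707) and the vacuolar phytochelatin carriers ABCC1 (-0.42, adjusted p = 0.467) and ABCC2 (-0.14, adjusted p = 0.822) did not pass. The count of 16 was 11 without -P+Th replicate 3, 10 without mock+Th replicate 1 and 9 without mock+Th replicate 2.

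The defence genes that rose were mostly of camalexin synthesis. Of 12 tested, 5 rose and 0 fell (41.7% beside 20.6% of all genes), and 3 of the 5 are camalexin enzymes. CYP71A12 (AT2G30750) had 283, 264 and 364 CPM in the -P+Th libraries, against 9.61, 9.66 and 10.7 CPM in the mock+Th libraries (log2 fold change 4.92 ± 0.48, adjusted p = 3.26e-06). CYP71A13 (AT2G30770) had 8.65, 9.47 and 13.2 CPM in the -P+Th libraries, against 0, 0.182 and 0.189 CPM in the mock+Th libraries (log2 fold change 6.28 ± 0.76, adjusted p = 0.00067), and PAD3 (AT3G26830), the last enzyme of camalexin synthesis, had 80.5, 75.6 and 83.4 CPM in the -P+Th libraries, against 9.54, 10.3 and 8.14 CPM in the mock+Th libraries (log2 fold change 3.09 ± 0.24, adjusted p = 4.17e-07). None of the 3 overlapped between the groups. CYP71A12 and CYP71A13 are close copies, and reads may be divided between them. The regulators WRKY75 (2.06, adjusted p = 0.00385) and WRKY6 (1.16, adjusted p = 0.00767) rose as well, both also known from low phosphate. WRKY33, an activator of camalexin genes, had a log2 fold change of -0.67 (adjusted p = 0.227).

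Jasmonate genes gave 5 higher and 1 lower of 13, 46.2% past the threshold beside 20.6% of all genes. VSP2 (AT5G24770), a storage protein induced by jasmonate, had 4.16, 9.91 and 3.21 CPM in the -P+Th libraries, against 0, 0.243 and 0.063 CPM in the mock+Th libraries (log2 fold change 5.68 ± 1.37, adjusted p = 0.0073). JAZ10, a repressor of the pathway (log2 fold change 2.56 ± 0.57, adjusted p = 0.00414), and LOX3, an enzyme of jasmonate synthesis (log2 fold change 3.31 ± 0.76, adjusted p = 0.00526), rose, while the regulator MYC2 fell (log2 fold change -1.22 ± 0.36, adjusted p = 0.0253). Without -P+Th replicate 3 LOX3 had a log2 fold change of 2.2 with an adjusted p of 0.0403. VSP2 had few reads in mock+Th libraries, and its log2 fold change ran from 5.03 without -P+Th replicate 2 to 7.15 without mock+Th replicate 2. Without mock+Th replicate 1 the count of rises was 3, and the fall was lost without -P+Th replicate 1 or 3 or mock+Th replicate 3. Of 10 heat shock genes 4 rose (40% beside 20.6% of all genes), all of them small heat shock proteins at low levels. HSP17.6A (AT5G12030) had 7.24, 2.67 and 25.6 CPM in the -P+Th libraries, against 0.667, 0.729 and 0.694 CPM in the mock+Th libraries, with -P+Th replicate 3 far above its group mates (log2 fold change 4.04 ± 1.14, adjusted p = 0.0187), and without that library the log2 fold change was 2.81 with an adjusted p of 0.106. Without -P+Th replicate 3, and without any 1 of the mock+Th libraries, the count was 1.

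**Figure D4:**
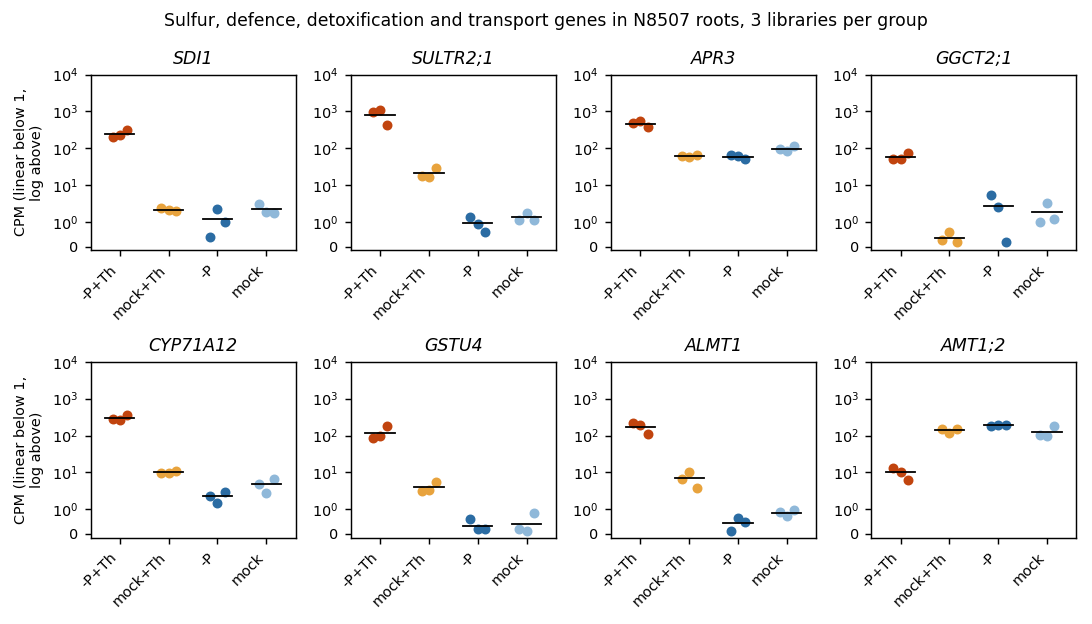
CPM of 8 genes in the 3 libraries each of N8507 -P+Th, mock+Th, -P and mock roots (axis linear below 1 and logarithmic above). Points are libraries and bars are group means. SDI1, SULTR2;1, APR3, GGCT2;1, CYP71A12, GSTU4 and ALMT1 are highest in -P+Th roots, and AMT1;2 is lowest there.

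Genes of malate release and aluminium tolerance rose in 4 of 9 cases and fell in 0, 44.4% beside 20.6% of all genes. ALMT1 (AT1G08430), the malate channel of root tips, had 220.2, 191 and 109.9 CPM in the -P+Th libraries, against 6.67, 10.2 and 3.85 CPM in the mock+Th libraries. Replicate 3 was the lowest library in each group, and the groups did not overlap (log2 fold change 4.65 ± 0.41, adjusted p = 1.59e-06). ALMT1 without thorium had a log2 fold change of -1.01 ± 0.59, adjusted p = 0.521, and the difference of effects was 5.66 ± 0.70, adjusted p = 4.4e-05. MATE (AT1G51340), a citrate exporter of the aluminium response, had 63.6, 60.1 and 60.3 CPM in the -P+Th libraries, against 24.2, 21.8 and 23.5 CPM in the mock+Th libraries (log2 fold change 1.41 ± 0.30, adjusted p = 0.00296). ALS3, part of an ABC transporter for aluminium tolerance, had 35.4, 33.9 and 56.7 CPM in the -P+Th libraries, against 14.7, 14.5 and 17.3 CPM in the mock+Th libraries (log2 fold change 1.44 ± 0.21, adjusted p = 0.000174). LPR2, a ferroxidase of the root tip's response to low phosphate (log2 fold change 0.83 ± 0.25, adjusted p = 0.0273), lost its call in 4 of 6 fits without 1 library, and without -P+Th replicate 3 it had a log2 fold change of 1.01 with an adjusted p of 0.0101. STOP1, the transcription factor of ALMT1, had a log2 fold change of -0.14 (adjusted p = 0.603).

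Iron genes moved in both directions, 6 of 25 acquisition genes higher and 5 lower, 44% beside 20.6% of all genes. The uptake machinery fell. FRO2 (AT1G01580), the ferric reductase of the root surface, had 1.27, 0.763 and 0.803 CPM in the -P+Th libraries, against 41.5, 30.3 and 25.2 CPM in the mock+Th libraries (log2 fold change -5.06 ± 0.50, adjusted p = 3.86e-06). IRT1 (AT4G19690), the iron importer, had 1.34, 1.21 and 3.21 CPM in the -P+Th libraries, against 47.1, 36.6 and 22.1 CPM in the mock+Th libraries (log2 fold change -4.27 ± 0.49, adjusted p = 1.8e-05). Their transcription factor FIT had 6.17, 2.54 and 1.72 CPM in the -P+Th libraries, against 30.4, 25.6 and 34.6 CPM in the mock+Th libraries (log2 fold change -3.08 ± 0.39, adjusted p = 4.64e-05). In none of the 3 did the groups overlap. CYP82C4, which hydroxylates iron-mobilising coumarins, was at 0 in all -P+Th libraries, against 5.67, 4.92 and 2.33 CPM in the mock+Th libraries, at least 55.4-fold lower against a floor of 3 reads over the group (adjusted p = 0.000447). NAS2, a nicotianamine synthase (-1.20, adjusted p = 0.0139), was the other member that fell.

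The rises were mostly among genes that signal iron shortage. IMA1 (AT1G47400), a peptide of that kind, had 1.94, 4.13 and 10.9 CPM in the -P+Th libraries, against 0.267, 0 and 0.063 CPM in the mock+Th libraries (log2 fold change 5.6 ± 1.19, adjusted p = 0.0039). The log2 fold change of IMA1 was 4.73 without -P+Th replicate 3 and 7.15 without mock+Th replicate 1. IMA3 was at 0 in all mock+Th libraries and had 1.34, 1.65 and 1.26 CPM in the -P+Th libraries, at least 23.2-fold higher against the same floor (adjusted p = 0.011), a call that DESeq2 did not make. IMA2 (4.60, adjusted p = 0.012), the transcription factors BHLH38 (2.5, adjusted p = 0.0183) and BHLH100 (2.94, adjusted p = 0.0277) and the glucosidase BGLU42 (0.80, adjusted p = 0.00542) rose too. Without mock+Th replicate 3 the count of rises was 3. The storage protein gene FER1 (AT5G01600) had 458, 499 and 653 CPM in the -P+Th libraries, against 264, 263 and 253 CPM in the mock+Th libraries (log2 fold change 1.04 ± 0.17, adjusted p = 0.000306), and VTL5, which encodes a likely vacuolar iron transporter, fell (log2 fold change -2.37 ± 0.27, adjusted p = 1.52e-05). They were the members of 7 storage genes that passed (28.6% beside 20.6% of all genes), with 2 falling without -P+Th replicate 3.

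Among 10 copper genes 2 rose and 1 fell, 30% past the threshold beside 20.6% of all genes. FSD1 (AT4G25100), the iron superoxide dismutase, had 89.2, 121 and 167 CPM in the -P+Th libraries, against 18.6, 14.1 and 13.4 CPM in the mock+Th libraries, with no overlap (log2 fold change 3.03 ± 0.35, adjusted p = 2e-05). CCS, the copper chaperone of superoxide dismutase, fell (log2 fold change -0.61 ± 0.15, adjusted p = 0.00957). FRO4, a cupric reductase, was at 0 in all mock+Th libraries and had 0.067, 0.381 and 0.803 CPM in the -P+Th libraries, at least 5.7-fold higher against the same floor (adjusted p = 0.0405), and its call was lost in 5 of 6 fits without 1 library. The count of rises was 1 without -P+Th replicate 2 or 3 or any 1 mock+Th library, and that of falls was 2 without -P+Th replicate 3. Of 8 zinc genes tested, 2 rose, ZIP1 (1.45, adjusted p = 0.000128) and IRT3 (0.91, adjusted p = 0.000847), and 2 fell, ZIP5 (-1.89, adjusted p = 2.7e-05) and ZIP9 (-1.88, adjusted p = 0.019), all of them zinc transporters of the ZIP family. These calls were 50% of the 8 zinc genes, beside 20.6% of all genes. The call of ZIP9 was lost without -P+Th replicate 2 or mock+Th replicate 1 or 3.

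Nitrogen genes fell in 10 and rose in 4 of 26 cases, 53.8% past the threshold beside 20.6% of all genes. AMT1;2 (AT1G64780), an ammonium transporter of inner root layers, had 13.5, 10.5 and 6.08 CPM in the -P+Th libraries, against 152, 114 and 150.4 CPM in the mock+Th libraries. Both it and its relative AMT1;3 (AT3G24300), with 4.09, 4.38 and 6.65 CPM in the -P+Th libraries, against 79, 62.6 and 68.2 CPM in the mock+Th libraries, were without overlap (log2 fold change -3.78 ± 0.31, adjusted p = 7.22e-07 for AMT1;2 and log2 fold change -3.81 ± 0.31, adjusted p = 6.22e-07 for AMT1;3). GDH3, a glutamate dehydrogenase, fell (log2 fold change -2.99 ± 0.39, adjusted p = 5.57e-05), as did the regulators BT1 (-2.02, adjusted p = 0.00192), BT2 (-2.11, adjusted p = 0.00201) and HRS1 (-1.50, adjusted p = 8.2e-06), which couples nitrate and phosphate signals. The call of the high-affinity nitrate transporter NRT2.4 (log2 fold change -2.27 ± 0.73, adjusted p = 0.0367) was lost without -P+Th replicate 2 or 3 or mock+Th replicate 2, and its log2 fold change ran from -3.10 without -P+Th replicate 1 to -1.44 without mock+Th replicate 2. The rises were mostly in nitrate uptake and reduction. NRT1.1 (AT1G12110), a nitrate transporter and sensor, had 564, 567 and 439.9 CPM in the -P+Th libraries, against 183, 161 and 127 CPM in the mock+Th libraries (log2 fold change 1.74 ± 0.25, adjusted p = 0.000123). Nitrite reductase NIR1 (1.47, adjusted p = 1.66e-05), nitrate reductase NIA1 (1.24, adjusted p = 0.0028) and the ammonium transporter AMT2;1 (0.89, adjusted p = 0.00126) rose too.

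Of 5 potassium genes 2 rose and 2 fell, 80% past the threshold beside 20.6% of all genes. HAK5 (AT4G13420), the high-affinity potassium importer, had 322, 288 and 467 CPM in the -P+Th libraries, against 45.2, 48.3 and 20 CPM in the mock+Th libraries (log2 fold change 3.25 ± 0.35, adjusted p = 1.1e-05). NRT1.5 (AT1G32450), which loads potassium and nitrate into the xylem, had 136, 122 and 73 CPM in the -P+Th libraries, against 534, 399.7 and 544 CPM in the mock+Th libraries (log2 fold change -2.16 ± 0.25, adjusted p = 1.68e-05). Neither overlapped between the groups. The outward channels SKOR of the stele (-1.29, adjusted p = 0.000624) and GORK (0.97, adjusted p = 0.00741) moved in opposite directions.

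Hypoxia genes fell in 10 of 12 cases with 0 rising, 83.3% beside 20.6% of all genes, and their median log2 fold change was -1.64. ADH1 (AT1G77120), alcohol dehydrogenase, had 134, 146 and 88.2 CPM in the -P+Th libraries, against 1691, 1786 and 413 CPM in the mock+Th libraries. Replicate 3 of mock+Th was low, yet above every -P+Th library (log2 fold change -3.40 ± 0.49, adjusted p = 0.00014). PDC1, pyruvate decarboxylase, had 88.6, 104 and 103 CPM in the -P+Th libraries, against 561, 651 and 112 CPM in the mock+Th libraries, the same library low (log2 fold change -2.16 ± 0.49, adjusted p = 0.00475). PCO1, a plant cysteine oxidase, had 21.1, 19.6 and 25.4 CPM in the -P+Th libraries, against 109.9, 109 and 72.4 CPM in the mock+Th libraries, with mock+Th replicate 3 again the lowest of its group (log2 fold change -2.15 ± 0.17, adjusted p = 4.17e-07). Summed over the 12 members, the list came to 962, 1008 and 916 CPM in the -P+Th libraries, against 4702, 4896 and 1813 CPM in the mock+Th libraries. Without mock+Th replicate 3 the count of falls was 11, and without -P+Th replicate 3 it was 10. The list also fell in the pair without thorium, where 10 of 12 passed, beside 0.776% of all genes lower there. The difference of effects was negative for 2 members and positive for 0, beside 7.85% and 5.9% of all genes.

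Genes of root surface and barrier tissues were lower in part. Of 15 endodermal barrier genes 6 fell and 3 rose, 60% past the threshold beside 20.6% of all genes. CASP4 (AT5G06200), one of the membrane proteins that position the Casparian strip, had 1.94, 0.763 and 0.688 CPM in the -P+Th libraries, against 17.55, 22.8 and 19.6 CPM in the mock+Th libraries (log2 fold change -4.08 ± 0.44, adjusted p = 9.15e-06). CASP1 (AT2G36100) had 74.5, 59 and 75.8 CPM in the -P+Th libraries, against 197, 214 and 160.1 CPM in the mock+Th libraries (log2 fold change -1.45 ± 0.28, adjusted p = 0.00162). Both were lower in all -P+Th libraries (the log2 fold change of CASP4 was -4.75 without -P+Th replicate 1), and CASP2 (-1.28, adjusted p = 0.00954), the peroxidase PER64 (-1.20, adjusted p = 0.000711), ESB1 (-1.16, adjusted p = 0.00681) and their regulator MYB36 (-0.75, adjusted p = 0.012) fell with them. The rises were FAR1, FAR4 and FAR5, reductases that supply suberin alcohols, with FAR4 at 125, 115 and 127 CPM in the -P+Th libraries, against 60.3, 44.3 and 56.4 CPM in the mock+Th libraries (log2 fold change 1.19 ± 0.18, adjusted p = 0.000224). The count of rises was 1 without -P+Th replicate 1 or mock+Th replicate 3.

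Of 9 root hair genes 5 fell and 0 rose, 55.6% beside 20.6% of all genes, with a median log2 fold change of -1.65. EXPA7 (AT1G12560), a root hair expansin, had 5.36, 1.72 and 2.87 CPM in the -P+Th libraries, against 17, 12.2 and 17.3 CPM in the mock+Th libraries (log2 fold change -2.21 ± 0.56, adjusted p = 0.00988). COBL9 (AT5G49270) had 12.3, 11.7 and 19.5 CPM in the -P+Th libraries, against 50.9, 36.9 and 48 CPM in the mock+Th libraries (log2 fold change -1.65 ± 0.43, adjusted p = 0.0118). COW1 (-1.96, adjusted p = 0.00756), EXPA18 (-1.77, adjusted p = 0.0155) and the regulator RHD6 (-0.81, adjusted p = 0.0105) fell as well. The call of EXPA18 was lost without -P+Th replicate 2 or mock+Th replicate 1. Without mock+Th replicate 1 the count was 3. In the root tissue marker list COBL9, EXPA7, CASP1 and the endodermal regulator SCR (-0.64, adjusted p = 0.0304) were the 4 of 11 that fell, and the call of SCR was lost without -P+Th replicate 3 or mock+Th replicate 1 or 2. Those 4 were 36.4% of the marker list, beside 20.6% of all genes. The phloem gene SUC2 (0.32, adjusted p = 0.29) and the xylem gene IRX3 (-0.26, adjusted p = 0.635) did not pass. None of 13 cell division genes passed, by edgeR, by DESeq2 or in any fit without 1 library, with log2 fold changes from -0.30 (MCM5) to 0.52 (CYCB1;1). At an unadjusted p under 0.05 the count was 0 too.

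The genes that changed most, whatever their list, were taken from those that have a gene symbol, whose libraries did not overlap and whose higher group averaged 5 CPM or more. Beside BGLU28, GGCT2;1, LSU1, SDI1, CYP71A13, VSP2 and IMA1, the 12 that rose most held LSU3, a neighbour of LSU1 (6.22), the carbonic anhydrase BCA3 (7.12), the lipid transfer protein LTP6 (6.14), the glutathione transferase GSTU3 (5.77) and the glucosidase BGLU27 (5.67). Without -P+Th replicate 3 the log2 fold change of LSU3 was 5.42 and that of GSTU3 4.94. The adjusted p of the 12 ranged from 1.11e-07 (SDI1) to 0.0073 (VSP2).

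Among the 12 that fell most were 5 cytochrome P450 genes of the CYP712, CYP93, CYP76 and CYP71 families. CYP93D1 (AT5G06900) had 0.134, 0.508 and 0 CPM in the -P+Th libraries, against 40.8, 36.2 and 49.5 CPM in the mock+Th libraries (log2 fold change -7.36 ± 0.41, adjusted p = 2.71e-08). CYP712A2, which lies beside it by locus number, had 0.067, 0.127 and 0 CPM in the -P+Th libraries, against 14.3, 10.9 and 16.7 CPM in the mock+Th libraries (log2 fold change -7.38 ± 0.46, adjusted p = 8.37e-08). With 3 reads in all -P+Th libraries its ratio was 0.00556, with an exact 95% counting interval of 0.00114 to 0.0163. CYP712A1 had 0.805, 0.381 and 1.15 CPM in the -P+Th libraries, against 70.7, 65.5 and 104 CPM in the mock+Th libraries (log2 fold change -6.76 ± 0.35, adjusted p = 1.2e-08), and CYP76G1 (-6.79) and CYP71B26 (-4.97) followed. The others were PHT1;2, FRO2, the transporter UMAMIT17 (-6.53), the lactic acid channel NIP2;1 (-5.78), MLO14 (-5.40), the transcription factor DDF1 (-5.32) and SRO4 (-5.12). Without -P+Th replicate 2 the fitted log2 fold change was -8.84 for CYP93D1 and -8.12 for CYP712A2, and without -P+Th replicate 1 it was -10.22 for UMAMIT17, -9.39 for MLO14 and -6.81 for SRO4. These genes had few reads in -P+Th libraries, so the fitted values are no bounds. DDF1 had -4.56 without mock+Th replicate 3. NIP2;1 and SRO4 were low in mock+Th replicate 3, at 6.81 and 0.378 CPM, beside 60.5 and 62.3 CPM for NIP2;1 and 7.47 and 8.57 CPM for SRO4 in the other mock+Th libraries. NIP2;1 and SRO4 were not put in the hypoxia list used here, whose sum was low in the same library. Whether they respond to hypoxia was not tested.

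The remaining lists were small. Members past the threshold were 60% for flavonoids and 66.7% for abscisic acid and ethylene, beside 20.6% of all genes. They were 28.6% for calcium and touch and 20% for green tissue markers, near the share of all genes for lists this small. Of 5 flavonoid genes tested CHI rose (2.61, adjusted p = 0.00764) and CHS (-2.88, adjusted p = 0.0358) and F3H (-2.63, adjusted p = 0.0477) fell, all enzymes of flavonoid synthesis (F3H was at -4.28 without -P+Th replicate 2), and no fit without 1 library kept both falls. Of 7 calcium and touch genes ACA13, a calcium pump, had 186, 155 and 190.4 CPM in the -P+Th libraries, against 16.7, 13 and 17.599 CPM in the mock+Th libraries (log2 fold change 3.49 ± 0.48, adjusted p = 9.99e-05), and the calmodulin-like TCH3 rose (1.27, adjusted p = 0.0107). The count of 2 was 4 without -P+Th replicate 3 and 1 without mock+Th replicate 1 or 2. Of 6 abscisic acid and ethylene genes tested 3 rose and 1 fell. RD29A, a gene of osmotic stress, had 453, 816 and 473 CPM in the -P+Th libraries, against 124, 152 and 131 CPM in the mock+Th libraries (log2 fold change 2.1 ± 0.32, adjusted p = 0.000221). ERF1 (log2 fold change 1.39 ± 0.45, adjusted p = 0.0366) had a log2 fold change of 0.56 with an adjusted p of 0.349 without -P+Th replicate 3, and its call was lost without any 1 of the mock+Th libraries as well. ACS2, an ethylene synthesis enzyme, rose (2.34, adjusted p = 0.00431) and ACO1, which acts after it, fell (-2.06, adjusted p = 0.00157). Of the 5 green tissue markers tested PSBO1 fell (log2 fold change -1.43 ± 0.34, adjusted p = 0.0075), a call lost without mock+Th replicate 3.

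In the line N9416, the other line with mock+Th libraries used here, fewer genes passed on removing phosphate under thorium than in N8507. There 1504 of 20839 genes (7.22%) passed, 923 higher (4.43%) and 581 lower (2.79%), in a fit of all 66 libraries, in which N8507 had 7747. The difference of the effects, N8507 minus N9416, passed in 4470 genes (21.5%), 2193 higher (10.5%) and 2277 lower (10.9%), with a median over all genes of 0.042, and in 3693 without N8507 -P+Th replicate 3. Of 55 phosphate genes tested in N9416, 2 rose and 4 fell, and most did not pass in either line. For IPS1 the effect in N9416 was -0.35 ± 0.39, adjusted p = 0.696, and the difference between the lines was -0.10 ± 0.55, adjusted p = 0.929. PHT1;2 had -0.80 ± 0.31, adjusted p = 0.114 in N9416, and the difference between the lines was -4.26 ± 0.46, adjusted p = 9.97e-10.

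The sulfur list differed between the lines for 10 of 15 members, all higher in N8507. SDI1 had 1.33, 2.63 and 6.95 CPM in N9416 -P+Th libraries, against 2.58, 1.33 and 2.22 CPM in N9416 mock+Th libraries. The difference between the lines was 5.97 ± 0.56, adjusted p = 1.94e-11 for SDI1 and 3.04 ± 0.28, adjusted p = 1.14e-11 for APR3. Root hair genes went the other way, with 6 of 9 higher in N9416 and a difference between the lines in 7, all negative. COBL9 had 88.2, 74.4 and 54.5 CPM in N9416 -P+Th libraries, against 25.3, 13.7 and 29.8 CPM in N9416 mock+Th libraries, and its difference was -3.31 ± 0.73, adjusted p = 0.000638. Of 15 endodermal barrier genes 5 rose in N9416, and the difference between the lines was negative for 7 and positive for 1. CASP1 was among them, with 0.97 ± 0.23, adjusted p = 0.00327 in N9416 and a difference of -2.42 ± 0.32, adjusted p = 1.31e-07. Of 10 copper genes 1 rose and 5 fell in N9416, and the difference was positive for 3 and negative for 1. The effects on FSD1 had opposite signs, with -2.39 ± 0.34, adjusted p = 3.67e-06 in N9416 and a difference of 5.42 ± 0.50, adjusted p = 1.32e-11. Those on CYP71A12 did too, with -2.52 ± 0.57, adjusted p = 0.00256 in N9416 and a difference of 7.44 ± 0.81, adjusted p = 1.24e-09. ALMT1 rose in both lines, by 2.58 ± 0.38, adjusted p = 4.57e-06 in N9416, and the difference was 2.07 ± 0.51, adjusted p = 0.00233. In the labels' running library numbers the lines stand in separate blocks. A shift common to a whole block cancels within each line. One that differs between the media cannot be told apart from line in this difference.

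**Figure D5:**
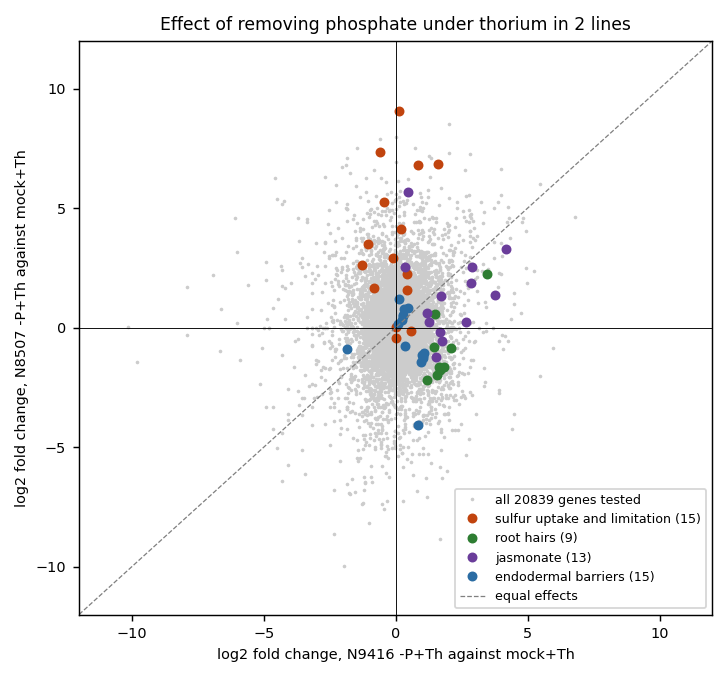
Each point is a gene, placed by its log2 fold change on phosphate removal under thorium in N8507 (vertical) and in N9416 (horizontal), both from 1 fit of 66 libraries. Sulfur genes (red) are mostly high in N8507 and scatter around 0 in N9416, root hair genes (green) and part of the endodermal barrier genes (blue) are positive in N9416 and mostly negative in N8507, and jasmonate genes (purple) are positive in N9416 for most members. The dashed line marks equal effects.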

How the data were processed

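RNA was extracted from roots with the Spectrum Plant Total RNA kit and made into libraries with the NEBNext Ultra II Directional kit, per the labels' protocols. The submitters' processing notes name Trimmomatic, Salmon 1.3.0 and the TAIR10 build. The strand setting and the origin of the replicates are not given in the sources used here. The deposited files give, per transcript model, an estimated count of reads and a TPM value made by the authors' Salmon run, with the length and effective length in bases. Of the 32875 models 99.99% have lengths that are multiples of 3, so they are coding sequences without UTRs. The deposited TPM values were not used in any test.

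Per locus (27313 genes), the estimated counts of its models were added, rounded to whole numbers and tested with edgeR 4.0.16 in R 4.3.3 (quasi-likelihood F-test, TMM normalisation, filterByExpr, Benjamini-Hochberg adjustment over all genes tested, threshold 0.05). The main comparison and the difference with and without thorium came from 1 fit of the 18 N8507 libraries, and the difference between lines from 1 fit of all 66. Standard errors were taken from the F statistic. A group at 0 was set to 3 reads over the group to give a bound. Ratios of -P+Th to mock+Th in N8507 with 1 to 3 reads in a group carry exact 95% counting intervals, which cover counting error only. Differences of effects carry no such interval. CPM used TMM library sizes. Symbols came from RefSeq's TAIR10.1 annotation, which matched 97.6% of loci.

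The 25 gene lists (316 members) and the comparisons were chosen with earlier results of these data known. The genes named were up to 4 per list with the largest change past the threshold, the 12 largest rises and the 12 largest falls without overlap among genes that have a symbol and a mean of 5 CPM or more in the higher group, up to 6 in each direction for each difference, and 8 fixed genes. Other genes of the lists were named after their values were seen, for their known roles. The scripts were tested on simulated data. Alternatives were DESeq2 1.42.0, its size factors, no filter on low counts, effective length offsets, other sets of libraries and leaving out each library in turn. No pair of libraries held identical values. A promoter sequence that the same rule would show is not reported here.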

Additional observations from a re-analysis of the deposited data

Results flagged for a closer look

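The effect of removing phosphate differed with and without thorium in 2783 genes of N8507, and under thorium it differed between N8507 and N9416 in 4470 genes, both by a test of the difference itself in edgeR. All values here are such differences on the log2 scale, for the genes at each end.

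With minus without thorium, the difference was 10.11 for CYP82C2, a cytochrome P450, 10.08 for the inositol transporter INT2, 9.88 for the small heat shock protein HSP17.6II, 9.48 for the transporter ABCG40, 9.34 for the carbonic anhydrase BCA3 and 9.14 for the iron shortage peptide IMA1. BCA3 averaged 16 CPM in -P+Th and 0.106 CPM in mock+Th roots. At the other end it was -11.88 for the acid phosphatase PAP23, -11.38 for PAP14 of the same family, -11.07 for the Calvin cycle kinase PRK, -10.95 for PHT1;3, -10.30 for PHT1;2 and -9.20 for PECP1. PAP23 averaged 15.5 CPM in -P+Th and 23.1 CPM in mock+Th roots, and 21.5 CPM in -P and 0 CPM in mock roots. CYP82C2, INT2, ABCG40 and IMA1 were at 0 in -P roots, PAP23, PAP14 and PRK at 0 in mock roots and PHT1;3 at 0 in -P+Th roots, so these fitted values depend on the prior count and are no bounds. HSP17.6II had 1 read in all mock+Th libraries, and BCA3 averaged 0.0222 CPM in -P roots, so their sizes rest on few reads. In mock roots HSP17.6II had 3.68, 8.68 and 32.3 CPM, the highest in replicate 3. PHT1;3 shares reads with its neighbours. The calls of CYP82C2, ABCG40, BCA3 and IMA1 were lost without mock replicate 3, that of IMA1 in 6 of 12 fits without 1 library, and that of PHT1;3 without mock+Th replicate 1 or 3.

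For N8507 minus N9416, the difference was 10.85 for CYP71A13, 10.20 for PR2 and 8.36 for PR5, both pathogenesis-related proteins, 9.54 for FRO4, 8.27 for the heme oxygenase HO4 and 8.21 for HSP17.6II. PR2 averaged 1.06 CPM in -P+Th and 1.1 CPM in mock+Th roots of N8507, and 0.0582 CPM in -P+Th and 75.2 CPM in mock+Th roots of N9416. It was -7.99 for DDF1, -6.91 for MRD1, -6.11 for CYP93D1, -6.07 for CYP712A2, -5.59 for CER4, a reductase of wax synthesis, and -5.58 for the aquaporin PIP2;4. PIP2;4 averaged 6.86 CPM in -P+Th and 141 CPM in mock+Th roots of N8507, and 137 CPM in -P+Th and 58.3 CPM in mock+Th roots of N9416. FRO4 was at 0 in mock+Th and MRD1 at 0 in -P+Th roots of N8507, so their fitted values are no bounds. PR5 averaged 0.0286 CPM in -P+Th roots of N9416. The differences of PR2 and PR5 thus rest on few reads there, and that of HSP17.6II on 1 read in mock+Th roots of N8507. CYP71A13 averaged 0.123 CPM in mock+Th roots of N8507 and 0.108 CPM in -P+Th roots of N9416, where HO4 averaged 0.2185 CPM. DDF1, CYP93D1 and CYP712A2 averaged 0.223, 0.212 and 0.064 CPM in -P+Th roots of N8507. The sizes of their differences rest on few reads as well. The call of PR5 held in 6 of 18 alternatives, 4 of them among the 12 fits without 1 library, and was lost in DESeq2. That of MRD1 was lost in the fit of only the 12 libraries compared.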

How the results depend on the processing

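The count of 4175 genes for -P+Th against mock+Th was 7747 in 1 fit of all 66 libraries and 2505 in a fit of only the 6 libraries compared, of which 4147 and 2412 were among the 4175. Residual degrees of freedom and the estimate of the spread differ between these fits, with a common dispersion of 0.0432 over 66 libraries and 0.0769 over the 18 of N8507. DESeq2 called 5223, effective length offsets 4542, DESeq2's size factors 4215 and no filter on low counts 4019, and leaving out 1 library gave 2869 to 4193. The count of 2783 for the difference with and without thorium was 5875 in the fit of 66 libraries, and 2041 to 2872 without 1 library. The count of 4470 for the difference between lines was 2595 with only the 12 libraries compared, and 3483 to 5226 without 1 library. Of 96 named genes past the threshold, 73 passed in each of the 12 alternatives, 77 in each fit without 1 library and 84 without -P+Th replicate 3. Without 1 library the log2 fold change of PHO2 ran from -0.41 to 0.44 and that of SPX1 from -0.22 to 0.06. The sign reversed for PHO2, at -0.12 without -P+Th replicate 1, -0.41 without -P+Th replicate 2 and -0.12 without mock+Th replicate 2, and for SPX1, at 0.06 without -P+Th replicate 3, and neither gene passed there or in the main comparison. Of the list counts under alternatives, 530 stayed within 1.5 times and 70 moved further. The 530 include counts that were 0 in the main comparison and stayed at 0, which had no call to lose. The causes of these shifts were not tested. No paired analysis was possible because the labels carry only running library numbers. Genes with few reads are limited by depth, and -P+Th replicate 3 had the fewest reads.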
